A study of Mus musculus with 24 samples.

Results

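The 10 genes described here are *Six3*, *Six6*, *Rax*, *Nkx2-4*, *Sim1*, *Otp*, *Fezf1*, *Vax1*, *Hmx3* and *Pomc*, 9 transcription factors that pattern the developing hypothalamus or specify its neurons and 1 prohormone made by hypothalamic neurons. They were chosen by name as a set, with no rule on their values but with earlier results of these data known. All 10 were found among the 54446 gene identifiers of the count tables. RNA was sequenced from brains of mouse embryos at E14.5 (E for embryonic day), each divided into the secondary prosencephalon (SP) and a piece holding diencephalon, midbrain and hindbrain (DMH). The mutants were *Tfap2b*-/-, homozygous for an allele in which a PGK-neo cassette sits in the fourth exon of *Tfap2b* and which every cell carries, and the controls were their *Tfap2b*+/+ littermates, all from crosses of heterozygous parents. By label there were 3 female and 3 male embryos of each genotype. These 12 embryos gave 1 SP and 1 DMH library each, 24 libraries in all. *Tfap2b* encodes AP-2β, a transcription factor of the AP-2 family. The questions asked were how the 10 genes differed between SP and DMH, between mutants and controls, and between DMH pieces that held more or less hindbrain.

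The hypothalamus forms from the ventral forebrain. Early regulators such as *Six3* and *Rax* first mark the anterior neural plate, from which the eyes, the hypothalamus and parts of the telencephalon arise, and later factors such as *Otp* and *Sim1* are needed for the neuroendocrine neurons that control the pituitary. In classical schemes the hypothalamus belongs to the diencephalon, and in the prosomeric scheme it belongs with the telencephalon to the secondary prosencephalon, so the name of a dissected piece does not by itself say in which piece the hypothalamus lay.

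Fragments counted on genes numbered from 24717386 to 66844175 in a library, and levels are given as CPM, counts scaled to library size with TMM factors over the 24 libraries. *Tfap2b* itself, the check of the genotype, stood at 277 to 438 CPM in the DMH controls and at 50.5 to 55.6 CPM in the DMH mutants. Markers of the dissected regions matched the labels, since the summed level of 10 telencephalic genes was 2287 to 3861 CPM in SP and 233 to 371 CPM in DMH, and that of 8 midbrain genes 0.845 to 9.59 CPM in SP and 235 to 463 CPM in DMH. Female mutant 3 was left out of the tests because the study left it out of its own, on the basis of a principal component analysis. Its DMH library held 720 CPM summed over 7 skeletal muscle genes against at most 8.19 CPM in the other 23 libraries. Both libraries labelled female control 2 carried Y-linked transcripts and nearly no *Xist*, and no call on a member changed when sex was taken from the transcripts. In 4 DMH libraries, those of female control 1, female mutants 1 and 2 and male mutant 2, the summed level of 39 *Hox* genes was 0.355 to 19.8 CPM, and in the other 8 it was 359 to 614 CPM. *Hox* genes are transcribed in the hindbrain and spinal cord and not in the forebrain, and the 12 SP libraries had at most 0.450 CPM.

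AP-2 proteins bind palindromes that begin with GCC and end with GGC. The palindrome GCCNNNGGC, which reads the same on both strands, was searched in RefSeq promoters of GRCm38.p6 from 250 bases before to 50 bases after the gene start. It was found in 2 of the 9 members with a promoter entry, *Hmx3* and *Nkx2-4*, and in 16.6% of all 32851 promoters. The *Rax* promoter was not analysed here. Both palindromes are shown in capitals, 5′ to 3′ along the gene, because the mutated gene encodes an AP-2 factor. The *Hmx3* palindrome starts at position -141 from the RefSeq gene start and the stretch shown is chr7:131542812-131542840 on the plus strand. The *Nkx2-4* palindrome starts at -35, in chr2:147085362-147085390 on the minus strand, which lies inside the longer gene of the count annotation.
Hmx3: ctcgattcgcGCCCGGGGCggcccccgac
Nkx2-4: gcccgcgcccGCCCCGGGCccccctacct
The letters TATAAA were searched on both strands as a core promoter element. They were found in 13.6% of all promoters and in 2 of the 9 members, *Pomc* and *Sim1*. The *Sim1* match lies on the strand opposite to the gene, starts at -14 and is not shown. The *Pomc* match, in capitals, starts at -25 in chr12:3954910-3954935 on the plus strand and is shown because *Pomc* is the only prohormone among the members.
Pomc: accctgcaagTATAAAagaagagaga
A match describes letters in these windows and no binding.

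**Figure D1:**
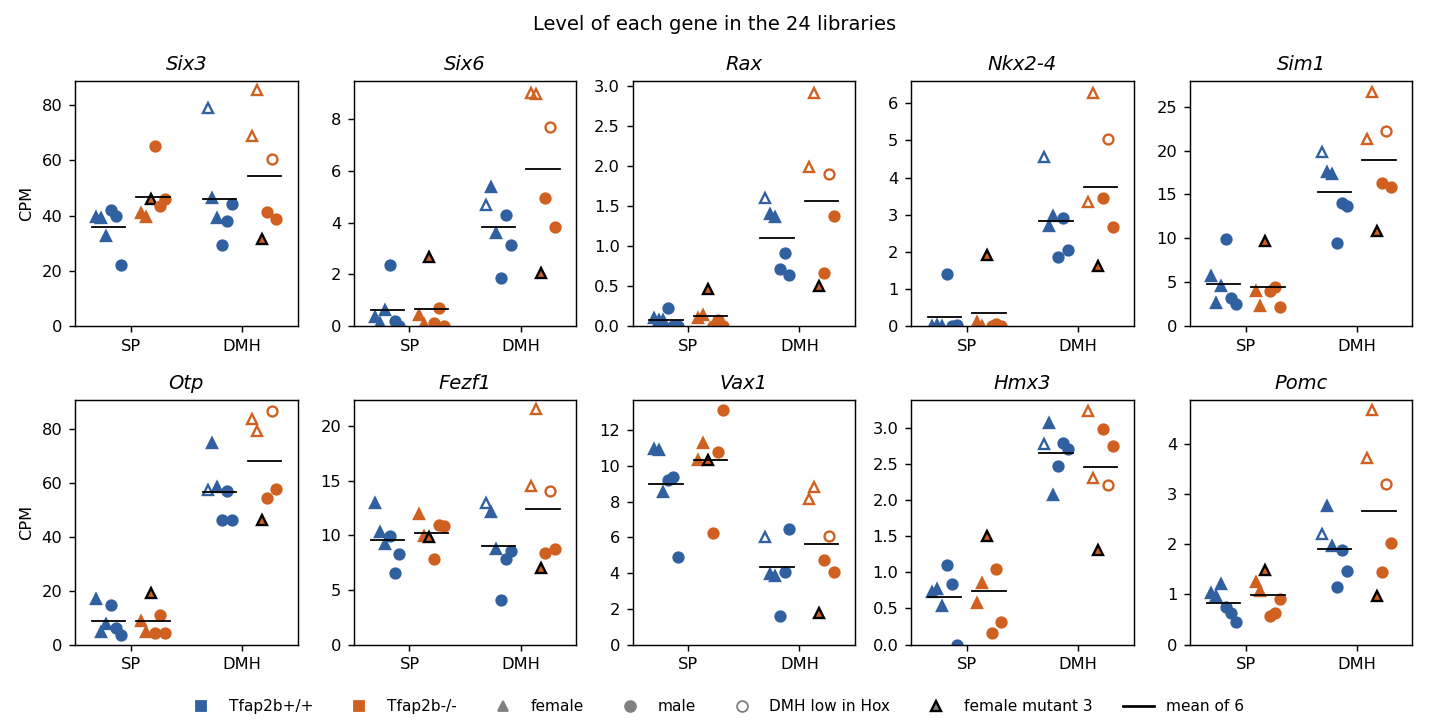
Level of each of the 10 genes in the 24 libraries, in CPM on a linear axis that starts at 0, for SP and DMH. Blue marks *Tfap2b*+/+ and orange *Tfap2b*-/-, triangles females and circles males, open symbols the 4 DMH libraries low in *Hox*, a black outline female mutant 3, and bars the mean of 6 libraries. *Otp* stood at 3.58 to 18.9 CPM in SP and at 46.0 to 86.6 CPM in DMH, while *Vax1* was higher in SP.

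The largest differences between SP and DMH were in *Nkx2-4*, *Rax* and *Six6*, all 3 higher in DMH. *Nkx2-4* (chr2:147083316-147085445, minus strand, GRCm38) encodes a homeobox factor closely related to Nkx2-1 and is transcribed in the ventral diencephalon. Its level in SP had a lowest value of 0, a median of 0.0128 and a highest value of 1.90 CPM, and in DMH these were 1.62, 2.94 and 6.28 CPM. The ranges overlapped only through the SP library of female mutant 3, and 10 of the 12 SP libraries had at most 3 counts. In edgeR's quasi-likelihood test on 11 SP and 11 DMH libraries, *Nkx2-4* was higher in DMH by a log2 fold change of 6.02 (SE 0.56, adjusted p = 1.52e-08). In a bulk sample, fewer cells that transcribe a gene and less RNA per cell cannot be told apart. *Rax*, a homeobox gene of the eye field that stays active in the lining of the hypothalamic ventricle, had 0, 0.0776 and 0.456 CPM as its lowest, median and highest level in SP, and 0.505, 1.36 and 2.91 CPM in DMH. Its ranges did not overlap, and the log2 fold change was 4.19 (adjusted p = 1.88e-09 by edgeR, SE 0.35). *Six6* (chr12:72939892-72944899, plus strand), which encodes a homeobox factor of the retina, the pituitary and the ventral hypothalamus, had 0, 0.269 and 2.66 CPM in SP and 1.86, 4.48 and 9.02 CPM in DMH. Only the SP libraries of male control 1 and female mutant 3 reached into the DMH range, and the log2 fold change was 3.69 (adjusted p = 2.47e-06 by edgeR, SE 0.48). Male control 1 carried weight in all 3 estimates. Without its libraries the log2 fold changes were 7.24 for *Nkx2-4*, 5.31 for *Rax* and 4.62 for *Six6*, and with female mutant 3 put back they were 4.95, 3.84 and 3.05.

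Of the factors that specify neurons, *Otp*, *Sim1* and *Hmx3* were also higher in DMH. *Otp* (chr13:94875602-94885130, plus strand), a homeobox gene needed for neuroendocrine neurons of the paraventricular, supraoptic and arcuate nuclei, had 3.58, 6.94 and 18.9 CPM as its lowest, median and highest level in SP and 46.0, 57.4 and 86.6 CPM in DMH. The regions did not overlap, with a log2 fold change of 3.06 (adjusted p = 3.11e-08 by edgeR, SE 0.27). *Sim1* (chr10:50894754-50989152, plus strand), which encodes a bHLH-PAS factor required by the same neuroendocrine lineages, had 2.18, 4.01 and 9.90 CPM in SP and 9.52, 16.8 and 26.7 CPM in DMH. The overlap came from the SP libraries of male control 1 and female mutant 3, and the log2 fold change was 2.15 (adjusted p = 3.35e-08 by edgeR, SE 0.21). *Hmx3* (chr7:131542867-131544925, plus strand), a homeobox gene of the inner ear and the hypothalamus, had 0, 0.743 and 1.496 CPM in SP and 1.31, 2.72 and 3.23 CPM in DMH. The DMH library of female mutant 3 was the only one within the SP range, and the log2 fold change was 2.06 (adjusted p = 6.18e-06 by edgeR, SE 0.30).

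*Pomc* (chr12:3954951-3960642, plus strand) encodes the precursor of melanocortins and β-endorphin, made by arcuate neurons and by pituitary corticotrophs. Its lowest, median and highest level was 0.460, 0.943 and 1.496 CPM in SP and 0.965, 2.00 and 4.69 CPM in DMH. The ranges overlapped, but DMH was the higher library in 11 of 12 embryos, with a log2 fold change of 1.48 (adjusted p = 3.22e-08 by edgeR, SE 0.15). Markers of the anterior pituitary moved in the same direction as *Pomc*. Of 12 listed, 4 were tested and all 4 were higher in DMH, with a median log2 fold change of 8.03, and the sum of the 12 was 22.5 to 49.4 CPM in DMH and 0 to 5.33 CPM in SP. Their part in the difference in *Pomc* was not tested. *Pou1f1*, *Gh*, *Prl*, *Cga* and *Tshb*, which mark anterior pituitary lineages, had at most 3 counts in every library, and *Tbx19*, the factor of the corticotrophs, had 0.0295 to 0.639 CPM in DMH and at most 1 count in SP.

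*Six3*, *Fezf1* and *Vax1* did not follow the other 7. *Vax1* (chr19:59166187-59170056, minus strand), a homeobox gene of the optic stalk and the ventral telencephalon, was the only member lower in DMH. It had 4.88, 10.3 and 13.1 CPM in SP and 1.61, 4.42 and 8.81 CPM in DMH, and the ranges overlapped. Its log2 fold change was -0.86 (adjusted p = 4.67e-04 by edgeR, SE 0.19). *Six3* (chr17:85613608-85629302, plus strand), which encodes the homeobox factor that establishes the anterior forebrain, had 22.2, 40.3 and 65.0 CPM in SP and 29.4, 42.6 and 85.5 CPM in DMH. Its log2 fold change of 0.37 (95% interval 0.10 to 0.64, edgeR adjusted p = 0.0244) was inside the limit of 0.5 set for a call. With a term for each embryo, *Six3* was at 0.31 (adjusted p = 0.128 by edgeR, SE 0.17). *Fezf1* (chr6:23245044-23248362, minus strand), a zinc finger gene of the forebrain and the ventromedial hypothalamus, had 6.53, 9.93 and 12.95 CPM in SP and 4.04, 8.71 and 21.6 CPM in DMH. The difference had a log2 fold change of 0.14 (95% interval -0.13 to 0.41, edgeR adjusted p = 0.373). For both genes the 4 highest DMH levels were those of the libraries low in *Hox*, and without those embryos the log2 fold change was -0.04 for *Six3* and -0.10 for *Fezf1*. The *Six3* locus also holds *Six3os1* on the other strand and 5 small predicted genes on its own strand. Where those 5 overlap *Six3*, a read cannot be given to 1 gene with certainty.

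**Figure D2:**
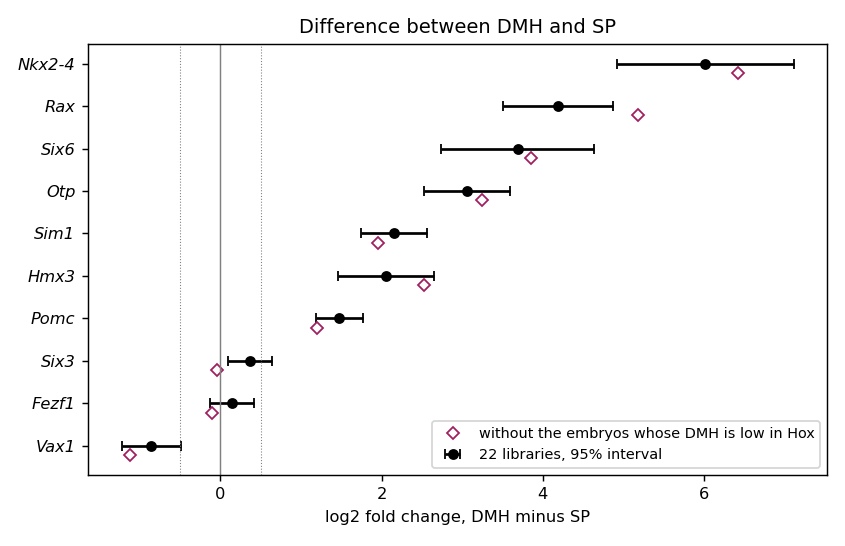
Log2 fold change between DMH and SP for each gene, with 0 at no difference and dotted lines at the limit of 0.5 in each direction. Black points and bars give the estimate and its 95% interval from 22 libraries, and open diamonds the estimate without the 4 embryos whose DMH was low in *Hox*. *Nkx2-4* lies at 6.02 and *Vax1* at -0.86, and the diamonds of *Six3* and *Fezf1* lie left of 0.

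In all, 7 of the 10 members were upregulated in DMH relative to SP, 1 was downregulated and 2 were not called, where a call needed a false discovery rate (FDR) below 0.2 and a log2 fold change beyond 0.5 in either direction. Of all 18317 genes tested, 36.8% were called, 21.5% up and 15.2% down. The median log2 fold change was 2.11 over the members and 0.0043 over all genes tested. SP and DMH libraries that bear the same number were taken as those of 1 embryo. On that basis *Rax* and *Otp* were higher in DMH in 12 of 12 embryos, as were 22.5% of all genes tested, *Nkx2-4*, *Sim1*, *Hmx3* and *Pomc* in 11, *Six6* in 10, *Six3* and *Fezf1* in 7 and *Vax1* in 1. Of all genes tested, 21.3% were higher in SP in every embryo.

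Other genes of the hypothalamus differed between the regions in both directions. Of 19 other hypothalamic regulators, 18 were tested, 11 were higher and 4 lower in DMH, with a median log2 fold change of 1.15. *Foxb1*, a gene of the mammillary region, was higher by 5.39, *Nr5a1*, the factor of the ventromedial nucleus, by 5.24 and *Nkx2-2*, a gene of the ventral neural tube, by 5.02 (edgeR adjusted p = 1.43e-10, 1.72e-08 and 9.96e-10). Lower in DMH were *Fezf2*, *Lhx6* and *Lhx8*, which are also transcribed in the telencephalon, with log2 fold changes of -4.37, -2.997 and -2.11 (edgeR adjusted p = 1.26e-15, 9.40e-07 and 8.92e-04). The remaining one was *Nkx2-1*, a gene shared by the hypothalamus and the ventral telencephalon, at -0.82. Of 15 hypothalamic neuropeptide genes, 11 were tested, 7 were higher and 2 lower in DMH, with a median of 1.94. *Cartpt*, *Pmch* and *Avp* were higher by log2 fold changes of 4.85, 4.32 and 3.45, and *Tac2* and *Gnrh1* were lower, with -1.99 and -1.92 (edgeR adjusted p at most 0.00114).

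Because the members differ in length, levels were compared between genes per kilobase of exon. In SP, *Vax1* had the highest level at 8.65 ± 2.02 CPM per kb (SD, n = 12), and *Six3* at 7.59 ± 1.81 CPM per kb differed from it by less than the SD of either gene. *Fezf1* followed at 4.10 ± 0.73 and *Otp* at 3.05 ± 1.86 CPM per kb, and the other 6 members were between 0.0176 CPM per kb for *Rax* and 0.693 CPM per kb for *Pomc*. The order changed in DMH. *Otp* led at 21.6 ± 5.15 CPM per kb, and *Six3* came next at 9.21 ± 3.43 CPM per kb. *Vax1* at 4.45 ± 2.00 and *Fezf1* at 4.44 ± 1.92 CPM per kb could not be ranked against each other. *Sim1*, *Nkx2-4*, *Hmx3* and *Pomc* lay within 1.74 to 1.98 CPM per kb, closer than their SDs, followed by *Six6* at 1.24 ± 0.61 and *Rax* at 0.227 ± 0.121 CPM per kb. *Rax* was lowest in both regions. Markers of the eye, where *Six3*, *Six6*, *Rax* and *Vax1* are also active, were read beside these levels. The lens genes *Cryaa* and *Crygs* and the pigment gene *Tyr* had at most 3 counts in every library. The sum of 12 eye markers was 50.8 to 87.6 CPM in SP and 13.5 to 25.3 CPM in DMH, with *Rlbp1* the largest part in both regions. Of 6 olfactory epithelium markers, 2 were tested, and the sum of the 6 was at most 3.87 CPM.

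Among the SP libraries, male control 1 and female mutant 3 stood apart from the other 10, and these 2 embryos were singled out after their values were seen. *Nkx2-4* was at 1.40 and 1.90 CPM in their SP, while the other 10 SP libraries had at most 0.0956 CPM. *Six6* was at 2.37 and 2.66 CPM against at most 0.705 CPM. *Rax* was at 0.220 and 0.456 CPM against at most 0.142 CPM. All 3 are genes of the ventral hypothalamus, and *Sim1* and *Hmx3*, of other hypothalamic fields, lay likewise. *Sim1* was at 9.90 and 9.69 CPM against at most 5.73 CPM, and *Hmx3* at 1.10 and 1.496 CPM against at most 1.04 CPM. Thus in 5 of the 10 members both SP libraries exceeded every other, as they did in 3.61% of all genes tested. *Six3*, *Otp*, *Fezf1*, *Vax1* and *Pomc* were within the range of the other SP libraries in at least 1 of these embryos.

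The DMH libraries of the same embryos lay at the other end. *Six6* was at 1.86 CPM in the DMH of male control 1 and at 2.05 CPM in that of female mutant 3, and the other 10 DMH libraries began at 3.12 CPM. *Sim1* was at 9.52 and 10.8 CPM, and the others began at 13.7 CPM. *Vax1* was at 1.61 and 1.77 CPM, and the others began at 3.84 CPM. Both libraries were below every other DMH library in 8 of the 10 members, all but *Rax* and *Hmx3*, and in 6.02% of all genes tested. For *Six6*, *Nkx2-4* and *Sim1* both patterns held, as they did for 0.202% of all genes tested. Among the other lists, both SP libraries were above all others in 8 of 19 hypothalamic regulators, 4 of 8 thalamic and pretectal genes, 4 of 8 midbrain genes and 0 of 10 telencephalic genes. The summed thalamic and pretectal level was 339 and 359 CPM in these SP libraries and 123 to 193 CPM in the other 10. The part of the dissection in these differences was not tested. The 2 embryos differ in sex and in genotype.

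**Figure D3:**
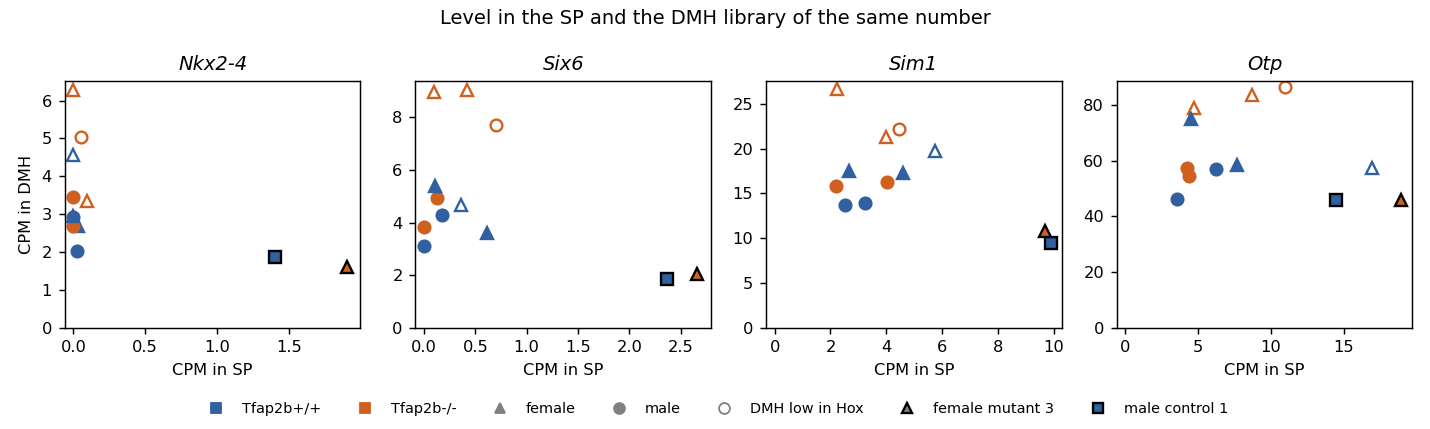
Level in DMH against level in SP for the libraries of the same number, in CPM on linear axes, for *Nkx2-4*, *Six6*, *Sim1* and *Otp*. Each point is 1 embryo, with colours and open symbols as in the plot of all libraries, male control 1 as an outlined square and female mutant 3 as an outlined triangle. These 2 embryos lie at the lower right for *Nkx2-4*, *Six6* and *Sim1*, with *Six6* at 2.37 and 2.66 CPM in SP and at 1.86 and 2.05 CPM in DMH.

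The 12 DMH pieces were then set side by side by their *Hox* content, with no test, because the 4 libraries low in *Hox* were set apart by a measured value (a sum under 44.3 CPM, the median of the 12 divided by 10). *Six3* was at 78.8 CPM in female control 1, 68.7 and 85.5 CPM in female mutants 1 and 2 and 60.3 CPM in male mutant 2. The other 8 DMH libraries had a lowest level of 29.4, a median of 38.8 and a highest level of 46.5 CPM, so all 4 were above them. *Fezf1* was at 12.9 CPM in female control 1, 14.53 and 21.6 CPM in female mutants 1 and 2 and 14.01 CPM in male mutant 2, again above the other 8, which ran from 4.04 over a median of 8.46 to 12.1 CPM. *Rax* was at 1.60, 1.99, 2.91 and 1.90 CPM in the same order against 0.505, 0.812 and 1.40 CPM, and *Sim1* at 19.8, 21.4, 26.7 and 22.2 CPM against 9.52, 14.9 and 17.5 CPM. The 4 pieces low in *Hox* therefore lay above all others in 4 of the 10 members, and they did so in 12.6% of all genes tested. They lay below all others in 0 members and in 9.56% of all genes tested.

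The remaining 6 members overlapped. The log2 ratio of the mean of the 4 libraries to the mean of the 8 was 1.06 for *Six6*, 1.02 for *Pomc*, 0.93 for both *Nkx2-4* and *Vax1*, 0.48 for *Otp* and 0.06 for *Hmx3*. *Rax* had the highest ratio of the 10 at 1.15, and the median over the members was 0.93 against 0.0087 over all genes tested. Other regions moved with it. The median log2 ratio was 0.68 for the 8 thalamic and pretectal genes, 0.62 for the 8 midbrain genes, 0.47 for the other hypothalamic regulators, 0.09 for the telencephalic genes, -0.25 for the hypothalamic neuropeptides and -1.26 for the 8 hindbrain and cerebellar genes. The 12 anterior pituitary markers summed to 39.5 to 49.4 CPM in the 4 libraries and to 22.5 to 36.9 CPM in the other 8. For the 4 of them tested, the median log2 ratio was 0.37, with a range from -3.08 to 1.10. Their part in the *Pomc* ratio was not tested. Within controls, female control 1 exceeded the other 5 in *Six3*, *Rax*, *Nkx2-4*, *Sim1* and *Fezf1*, 5 of the 10 members, and in 30.9% of all genes tested. Within mutants, the 3 pieces low in *Hox* exceeded the other 3 in 8 of the 10 members, all but *Nkx2-4* and *Hmx3*, and in 26.6% of all genes tested. Less hindbrain in a piece and more transcript of the rostral genes cannot be told apart in CPM.

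**Figure D4:**
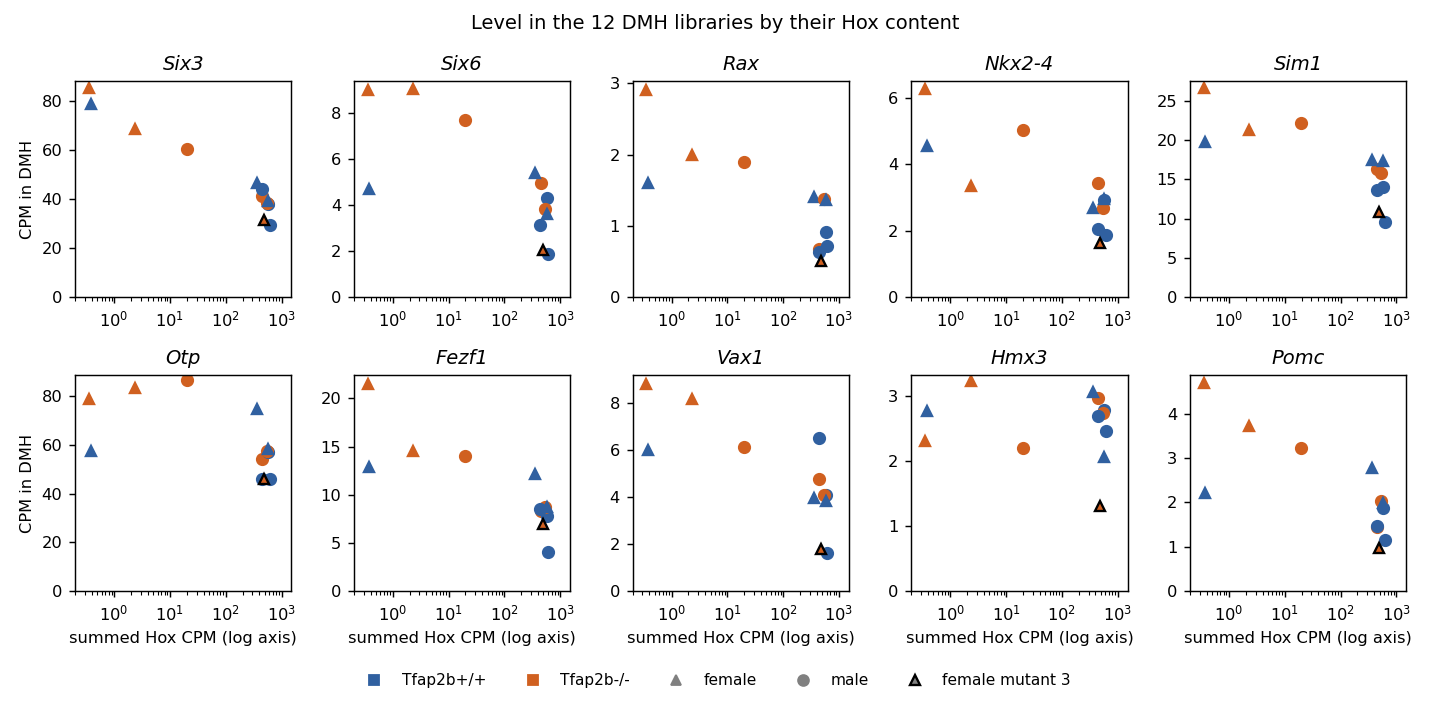
Level of each gene in the 12 DMH libraries, in CPM on a linear axis, against the summed level of 39 *Hox* genes, in CPM on a log axis. Blue marks *Tfap2b*+/+ and orange *Tfap2b*-/-, triangles females and circles males, and a black outline female mutant 3. The 4 libraries on the left have 0.355 to 19.8 CPM of *Hox* transcripts, and 3 of them are mutants.

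Mutants and controls were compared next, to ask whether the loss of *Tfap2b* changed these genes. In DMH of both sexes, with sex as a covariate and 6 controls and 5 mutants, 0 of the 10 members passed the thresholds in edgeR's quasi-likelihood test, against 0.0523% of the 17223 genes tested. At an unadjusted p under 0.05 there were 7 members, against 15% of all genes tested, and all 7 had a higher mean in the mutants. DESeq2 called 3, *Six6*, *Fezf1* and *Pomc*, among 52 genes in all, where edgeR called 9. *Six6* had 1.86, 3.94 and 5.39 CPM as its lowest, median and highest level in the controls, and 9.02 and 8.98 CPM in female mutants 1 and 2 and 4.95, 7.70 and 3.82 CPM in male mutants 1 to 3. The 3 mutants low in *Hox* were above every control and the other 2 were not, and the log2 fold change was 0.89 (SE 0.21, unadjusted p = 0.0013, adjusted p = 0.327 by edgeR). *Rax* had 0.638, 1.13 and 1.60 CPM in the controls and 1.99, 2.91, 0.667, 1.90 and 1.37 CPM in the mutants in the same order, with a log2 fold change of 0.75 (adjusted p = 0.327 by edgeR, SE 0.23). *Pomc* had 1.14, 1.93 and 2.77 CPM in the controls and 3.73, 4.69, 1.45, 3.22 and 2.03 CPM in the mutants, with a log2 fold change of 0.68 (adjusted p = 0.327 by edgeR, SE 0.20). In *Rax* and *Pomc* too, the mutants above every control were the 3 low in *Hox*.

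For the other members the groups also overlapped. *Fezf1* and *Nkx2-4* had log2 fold changes of 0.62 each (SE 0.22 and 0.22), *Sim1* of 0.47 (SE 0.12) and *Otp* of 0.38 (SE 0.12), all with an edgeR adjusted p of 0.327. *Vax1* had 0.54 (95% interval -0.03 to 1.11), *Six3* 0.40 (95% interval 0.00 to 0.79) and *Hmx3* 0.02 (95% interval -0.24 to 0.28), none of them past an unadjusted p of 0.05. The median log2 fold change over the 10 members was 0.58, and over all genes tested it was -0.0025. With female mutant 3 put back, the log2 fold changes ran from -0.12 for *Hmx3* to 0.67 for *Six6*, each with an edgeR adjusted p of 0.94. *Hox* content was not balanced, since 3 of the 5 mutants in the test and 1 of the 6 controls were low in *Hox*. With the log2 *Hox* level as a covariate the log2 fold changes ran from 0.05 for *Hmx3* to 0.70 for *Six6*. Among pieces with *Hox* content only, they ran from 0.09 for *Vax1* to 0.52 for *Six6* with 2 mutants, and from -0.32 for *Pomc* to 0.03 for *Nkx2-4* when female mutant 3 was added. Male mutant 1 also decided the count, and without it 5 members passed the thresholds, *Six6*, *Rax*, *Nkx2-4*, *Fezf1* and *Pomc*, while the calls over all genes went from 9 to 531.

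**Figure D5:**
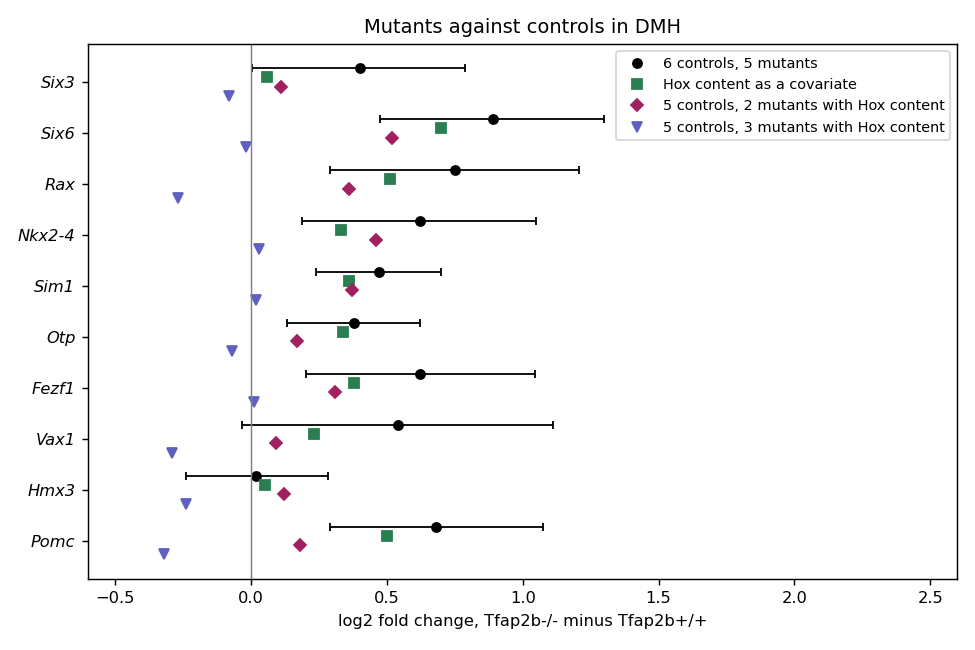
Log2 fold change of *Tfap2b*-/- against *Tfap2b*+/+ in DMH for each gene under 4 sets of samples or terms. Black points with bars give the estimate and its 95% interval from 6 controls and 5 mutants, squares the estimate with *Hox* content as a covariate, diamonds 5 controls and 2 mutants with *Hox* content, and down-pointing triangles 5 controls and 3 mutants with *Hox* content. *Six6* moves from 0.89 over 0.70 and 0.52 to -0.02.

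By sex, the female DMH (3 controls and 2 mutants) had 0 members past the thresholds by edgeR, against 0.00596% of 16773 genes tested, and 2 by DESeq2, *Six6* and *Vax1*, among 77 genes in all. At an unadjusted p under 0.05 there were 7 members, against 8.9% of all genes tested. These were *Six6* with a log2 fold change of 0.97, *Vax1* with 0.88, *Pomc* with 0.84, *Rax* with 0.75, *Fezf1* with 0.67, *Sim1* with 0.39 and *Otp* with 0.34, each with an edgeR adjusted p of 0.551. With female mutant 3, the only female mutant with *Hox* content, put back, the log2 fold changes were 0.53 for *Six6*, 0.42 for *Vax1*, 0.40 for *Pomc*, 0.26 for *Rax*, 0.34 for *Fezf1*, 0.10 for *Sim1* and 0.12 for *Otp*. Both female mutants in the test were low in *Hox*, and of the 3 controls labelled female so was control 1. Without female control 1, when every mutant was low in *Hox* and no control was, 6 members passed, *Six3*, *Six6*, *Rax*, *Fezf1*, *Vax1* and *Pomc*, while the calls over all genes went from 1 to 1117. In the male DMH (3 against 3), 0 members passed by edgeR, against 0.0236% of 16962 genes tested, and 0 by DESeq2. *Nkx2-4* with 0.70 and *Sim1* with 0.53 had an unadjusted p under 0.05, as did 2.89% of all genes tested (edgeR adjusted p = 0.87 for both). The effect of genotype did not differ between females and males at the FDR threshold in any of the 10 members in DMH or the 8 tested in SP. In DMH, the interaction of *Vax1* was the furthest from 0, at -0.62 (adjusted p = 1.0 by edgeR, SE 0.59).

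In SP no member was called by edgeR in either sex or in both together, in fits without a block for the replicate number. In SP of both sexes 8 members were tested, since *Rax* and *Nkx2-4* did not pass the filter on low counts, and 0 passed by edgeR or DESeq2, against 0% of 16973 genes by edgeR. *Six3* had 22.2, 39.2 and 42.0 CPM as its lowest, median and highest level in the SP controls. In the SP mutants it had 40.7 and 39.6 CPM in females 1 and 2 and 65.0, 43.3 and 45.9 CPM in males 1 to 3. The groups overlapped. The *Six3* log2 fold change of 0.38 (adjusted p = 0.901 by edgeR, SE 0.17) was the only one at an unadjusted p under 0.05, against 5.07% of all genes tested. With 1 library left out it ran from 0.22, without male control 3, to 0.44. *Six6* at -1.14 (95% interval -3.04 to 0.75) and *Sim1* at -0.52 (95% interval -1.22 to 0.18) had the lowest estimates, and *Otp*, *Hmx3*, *Fezf1*, *Pomc* and *Vax1* lay between -0.40 and 0.26. The estimate of *Six6* rested on the SP library of male control 1, without which it was 0.34. Without that library *Sim1* was at -0.10, *Otp* at -0.06 and *Hmx3* at 0.28. In female SP 0 of 8 tested members passed, against 0.0181% of 16615 genes, and 0 had an unadjusted p under 0.05 (2.58% of all genes). In male SP 0 of 7 tested members passed, against 0% of 16562 genes, and 0 had an unadjusted p under 0.05 (3.65% of all genes). DESeq2 called none in either.

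Whether the effect of genotype differed between DMH and SP was tested as an interaction, fitted with libraries as separate samples and no term for the embryo. *Rax* and *Nkx2-4* are not given, since most SP libraries had at most 3 counts. None of the other 8 members passed the FDR threshold, nor did any but 1 of all 17684 genes tested. The estimates furthest from 0 were 1.98 for *Six6* (SE 0.98, unadjusted p = 0.0572) and 0.93 for *Sim1* (SE 0.42, unadjusted p = 0.0368), each with an edgeR adjusted p of 0.999. In both genes the SP library of male control 1 was above every other SP control.

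The other lists were read in the same comparison of DMH of both sexes. An unadjusted p under 0.05 was reached by 5 of 8 thalamic and pretectal genes and by 8 of 18 other hypothalamic regulators, against 15% of all genes tested, so such a share was not confined to the 10 members. Among the other hypothalamic regulators 1 of 18 tested was called, *Foxb1*, which was downregulated in the mutants by a log2 fold change of -0.51 (adjusted p = 0.162 by edgeR, SE 0.09), and the median of the list was 0.20. Of the hypothalamic neuropeptides 0 of 8 were called, with a median of -0.10. Of the region markers, *Dmbx1* of the midbrain list was upregulated by 0.81 (adjusted p = 0.00225 by edgeR, SE 0.08). The telencephalic, thalamic and hindbrain lists had no call, with medians of -0.11, 0.34 and -0.57, and the 23 *Hox* genes tested had no call and a median of -1.77.

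Last, the genes whose pattern was most like that of each member were listed by Pearson's r of log2 CPM over the 24 libraries after the mean of each region was taken off. All 24 libraries come from the same dissections, so these values are descriptions. Of 14412 genes, the closest to *Six6* was *Sim1* (r = 0.92) and the closest to *Otp* was *Six6* (r = 0.89), followed by *Sim1* (r = 0.87). *Hmx3* was closest to its paralog *Hmx2* (r = 0.95), *Six3* to *Nnat* (r = 0.95), *Rax* to *Olig3* (r = 0.89), *Vax1* to *Sp8* (r = 0.90), *Fezf1* to *Phf21b* (r = 0.90), *Sim1* to *Nup62cl* (r = 0.92) and *Pomc* to *Coil* (r = 0.87). *Nkx2-1* was second to *Vax1* (r = 0.89), *Pmch* was among the closest 3 to *Nkx2-4* (r = 0.94) and *Trh* was the third closest to *Sim1* (r = 0.92). *Nup62cl* also ranked second for *Six6* and *Rax*. Other genes among the closest 3 were *Sp9* and *Lrrc49* for *Six3*, *Dbx1* for *Rax*, *Barhl1* for *Nkx2-4*, *Gpr50* for *Otp*, *Golm1* and *Naa35* for *Fezf1*, *Sox2* for *Vax1*, *Irs4* and *D930028M14Rik* for *Hmx3* and *Zfp423* and *Fam167a* for *Pomc*, with r between 0.83 and 0.94.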

How the data were processed

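Poly-A RNA was sequenced as stranded (dUTP) paired-end libraries. Per the submitters' processing notes, the authors trimmed reads with cutadapt 2.4, aligned them with STAR 2.6.1d to GRCm38.p6 and deposited, for each library, raw counts per gene, unstranded and for each strand. The reverse-strand counts were used here, the unstranded counts as an alternative, and 1 column by no fit. Lines that name no gene (17.3 to 25.9% of a table) were left out. Symbols, coordinates and exon lengths came from GENCODE vM21, and promoter sequences from RefSeq (GRCm38.p6).

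Counts were tested with edgeR 4.0.16 in R 4.3.3 (TMM, filterByExpr, robust quasi-likelihood F-test, Benjamini-Hochberg adjustment) at the study's FDR under 0.2 and absolute log2 fold change over 0.5, without female mutant 3. The SE was the log2 fold change over the root of F, and 95% intervals are 1.96 SE. DESeq2 1.42.0 was an alternative. Figures were drawn with matplotlib 3.10.9. Code was tested on simulated data. Libraries are counted as separate samples of their group. The members and gene lists were chosen with earlier results of these data known. Genes named outside the members were those of fixed lists with the largest changes or calls, and the 3 most alike by Pearson's r (mean CPM of at least 1, prior count 2). A few genes of the marker lists and of the likeness ranking are not reported here.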

Additional observations from a re-analysis of the deposited data

Results flagged for a closer look

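In 40 groups of 6 libraries (10 genes, 2 regions, 2 genotypes), 8 values, from 4 libraries, stood apart from the rest by Dixon's criterion (gap over range above 0.625). Chance gives about 1 in 20 separate groups, but these groups reuse the same libraries across genes that vary together, so the count of 8 cannot be read against that rate. In SP, female mutant 3 was the highest mutant in 4 genes, *Six6* at 2.66 CPM (next 0.705), *Rax* at 0.456 CPM (next 0.142), *Nkx2-4* at 1.90 CPM (next 0.0956) and *Sim1* at 9.69 CPM (next 4.44). Male control 1 was the highest SP control in *Six6* at 2.37 CPM (next 0.615) and *Nkx2-4* at 1.40 CPM (next 0.0346). *Six3* was at 65.0 CPM in the SP of male mutant 1 (next 46.1) and at 78.8 CPM in the DMH of female control 1 (next 46.5), the only DMH control low in *Hox*.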

How the results depend on the processing

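Of 190 alternative values of single genes between DMH and SP, 188 kept their direction and side of the threshold, and the same 8 genes were called in each alternative. Without the embryos low in *Hox*, *Six3* was at -0.04 and *Fezf1* at -0.10. Between genotypes, counts of members called changed in female DMH (2 with DESeq2, 5 with no filter on low counts, 0 to 6 with 1 library left out, the highest without female control 1, where 77, 535 and 1117 of all genes were called) and in DMH of both sexes (3 with DESeq2, 0 to 5 with 1 library left out, the highest without male mutant 1, where 52 and 531 of all genes were called). The cause was not tested. Counts on *Nkx2-4* and *Rax* in SP were too low (at most 3 in 10 and 9 of 12 libraries) to compare genotypes there.

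In DMH of both sexes, *Hmx3* was at -0.12 with female mutant 3 included and at -0.06 to 0.09 with 1 library left out (-0.03, -0.04 and -0.06 in the libraries that turned it). Among pieces with *Hox* content and female mutant 3 included, *Six3* was at -0.08, *Six6* at -0.02, *Rax* at -0.27, *Otp* at -0.07, *Vax1* at -0.29, *Hmx3* at -0.24 and *Pomc* at -0.32. With *Hox* content as a covariate and all samples, chosen after seeing the data, *Six3* was at -0.05, *Vax1* at -0.09 and *Hmx3* at -0.22. In SP of both sexes with all samples, *Six6* was at 0.10 and *Hmx3* at 0.20, and with 1 library left out *Six6* ran from -1.81 to 0.34 and *Hmx3* from -0.45 to 0.28 (above 0 at 0.06, 0.08, 0.14 and 0.28).

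With a term for each embryo, 8 members were called between DMH and SP (6858 of all genes, 6733 without the term). With the replicate number as a block, 1 member was called in female SP (71 of all genes, 3 without the block). None was called in the other 5 comparisons of genotype. The call in female SP was *Otp*, at a log2 fold change of -0.52 (adjusted p = 0.0094 by edgeR, SE 0.13) against -0.55 (SE 0.75) without the block, in a fit of 3 controls and 2 mutants whose levels overlapped. With the block, *Hmx3* in DMH of both sexes was at -0.01. Deviations of SP and DMH libraries of the same number correlated at 0.058 to 0.559 (11 of 12 over 0.1, and 11 best with their own number), and those of controls and mutants of the same number at -0.167 to 0.588 (7 of 12 over 0.1), so the numbers were not taken as pairs of controls and mutants.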
